A study of Homo sapiens with 10 samples.

Results

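Several dual-specificity phosphatases (DUSPs) and the Sprouty and SPRED proteins belong to the feedback arm of the ERK MAP kinase pathway. A few transcription factor and early-response genes respond to the same pathway. These families were examined here in HuCCT1, an established line of human bile duct cancer (cholangiocarcinoma), on 10 Affymetrix arrays. The members were chosen by symbol alone: every gene named DUSP with a number, and the genes SPRY1 to SPRY4, SPRED1 to SPRED3, ETV1, ETV4, ETV5, PHLDA1, IER3, EGR1, EGR2 and EGR3. 36 of the 19775 genes measured met this rule, 22 DUSPs and 14 others, read by 76 of the 54675 probe sets. EGR2 is not analysed here, because no probe set carried its symbol in the annotation used. Each gene was represented by its brightest probe set, by mean over the 10 arrays.

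HuCCT1 cells carrying an empty vector were measured on 5 arrays, and cells carrying a construct labelled YAPS94A on the other 5. The construct overexpresses YAP1, the transcriptional co-activator restrained by the Hippo kinases. The construct's identity is given in conflicting ways. Sample labels and title write S94A, a change of YAP1 that is known to impair its contact with TEAD transcription factors. The design text instead writes S127A, a change known to free YAP1 from inhibitory phosphorylation. These arrays do not tell the changes apart, so the name of the sample labels is kept. Whether the YAP1 probe set reads the construct, or only the cells' own transcript, is not known here. Whether the 5 arrays of each group are separate cultures is not labelled, nor whether the cells are a clone or a pool. The p-values therefore reflect array-to-array spread alone, which may be technical. In bulk RNA, fewer cells of a kind and less RNA per cell cannot be told apart. The comparison asks how the YAP1 construct changed the transcriptome of the line.

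ERK is activated by growth factor receptors through RAS, RAF and MEK, and it enters the nucleus to switch on early-response genes. Many of its targets then restrain the pathway. The typical DUSPs, also called MAP kinase phosphatases, remove phosphate from the threonine and the tyrosine of the activated kinase, some preferring ERK and others JNK or p38. Sprouty proteins dampen signalling from receptor tyrosine kinases to RAS, and SPRED proteins bring the RAS inhibitor neurofibromin to the membrane. ETV1, ETV4 and ETV5 are ETS-type transcription factors of the PEA3 family that respond to ERK. Because many of these transcripts follow ERK output, sets of them are widely used as readouts of the pathway. Among the 22 DUSPs counted here, 12 are of the atypical kind described below and 3 prefer JNK or p38. Not every member is therefore a readout of ERK.

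All 7 measured bile duct epithelial markers (KRT7, KRT19, KRT8, KRT18, EPCAM, CDH1 and SOX9) lay above the median gene level on average, with signals of 12.17 to 14.32. None of the 3 endothelial and none of the 3 leukocyte markers did (4.71 to 6.60), and of the 4 hepatocyte and 4 fibroblast markers 1 (SERPINA1) and 2 (COL1A1 and LUM) did. LUM, which encodes the matrix protein lumican, moved with the construct, from a mean of 8.04 to 10.70, and its part in the results was not tested. YAP1 read 12.12, 12.05, 12.47, 12.48 and 12.49 on empty vector arrays 1 to 5 and 12.87, 12.53, 12.90, 12.92 and 13.01 on the YAPS94A arrays. Its difference was 0.52 ± 0.11 (SE, limma adjusted p = 0.00277), with every construct array above every control. The chromosomal neighbours of YAP1 (the 30 adjoining genes above the median gene level) had a median of 0.26, and relative to them YAP1 was at 0.26 and did not pass (adjusted p = 0.0823, range over all alternatives 6.16e-06 to 0.0823). All signals here are log2 values as deposited, differences are YAPS94A minus empty vector, and a call is an adjusted p under 0.05 in limma over all 19775 genes. For further probe sets of a gene, the probe set adjusted p is the limma value over all 54613 non-control probe sets. Signals of different probe sets are not compared with each other, since each has its own scale.

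Members moved in both directions with the construct and showed no common shift. Of the 36 genes, 9 were higher (DUSP5, DUSP14, DUSP18, DUSP19, DUSP22, SPRY1, SPRY3, ETV5 and PHLDA1), 10 were lower (DUSP2, DUSP3, DUSP7, DUSP8, DUSP12, DUSP16, SPRY2, SPRED1, EGR1 and IER3) and 17 did not pass. That is 52.8% past the test, where 36.3% of all genes passed, 18.6% higher and 17.6% lower. Most members were bright. Of the 27 above the median gene level 16 were called (59.3%), beside 52.4% of all genes above that level. The median difference over the 36 was -0.015, and -0.0038 over all genes. Differences of at least 0.5 log2 units were called for 6 members (16.7%) and for 10.6% of all genes. Groups did not overlap for 15 members (41.7%, 7 higher and 8 lower) and for 29.1% of all genes.

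**Figure D1:**
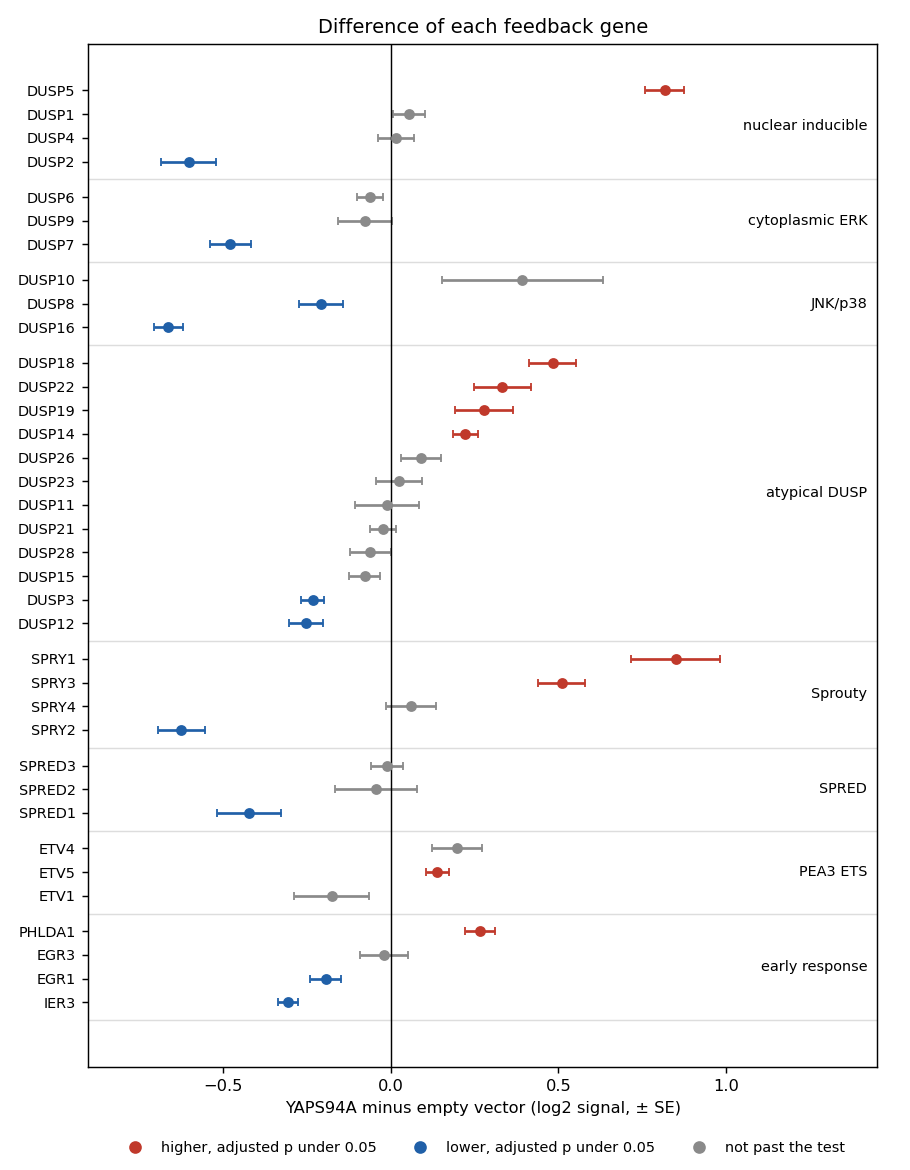
Difference of each of the 36 member genes, YAPS94A minus empty vector, on the log2 scale (horizontal axis, points with SE bars, 5 arrays a vector), grouped by role. SPRY1 and DUSP5 stand farthest to the right at 0.85 and 0.82, DUSP16, SPRY2 and DUSP2 farthest to the left at -0.66, -0.62 and -0.60, and 17 genes shown in grey did not pass the test.

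To show where such genes are read from, the 250 bases before a start site are given for 5 members. SPRY1 and SPRY2 are shown because these paralogues went opposite ways, DUSP1 and DUSP2 as inducible nuclear phosphatases of which only DUSP2 passed the test, and EGR1 as the classical early-response gene. Sequences are from RefSeq (GRCh38.p14), written 5′ to 3′ on the gene's strand, and 28 of the 36 members had an entry. Capitals mark matches, on either strand, to 5 motifs searched by letter: TGACGTCA (the cAMP response element, CRE, the same on both strands), TGAGTCA or TGACTCA (AP-1, each the reverse complement of the other), CCGGAAG (ETS), CATTCC (TEAD) and the CArG box of serum response factor. No matches overlapped in the 5 windows.
SPRY1: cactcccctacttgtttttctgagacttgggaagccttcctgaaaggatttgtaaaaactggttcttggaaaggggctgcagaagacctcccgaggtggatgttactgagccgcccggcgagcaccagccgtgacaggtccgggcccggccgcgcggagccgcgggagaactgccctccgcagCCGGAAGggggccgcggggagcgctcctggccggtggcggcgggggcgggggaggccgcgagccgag
SPRY2: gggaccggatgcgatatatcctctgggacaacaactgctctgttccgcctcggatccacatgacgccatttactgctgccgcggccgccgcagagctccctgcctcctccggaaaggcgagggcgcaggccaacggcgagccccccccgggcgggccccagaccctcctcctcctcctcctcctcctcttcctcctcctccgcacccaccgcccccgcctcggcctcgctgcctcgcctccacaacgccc
DUSP1: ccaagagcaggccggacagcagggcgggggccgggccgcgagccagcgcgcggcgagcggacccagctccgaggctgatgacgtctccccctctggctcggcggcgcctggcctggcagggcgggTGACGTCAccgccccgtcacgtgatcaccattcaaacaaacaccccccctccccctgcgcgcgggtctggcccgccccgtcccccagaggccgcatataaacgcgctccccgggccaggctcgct
DUSP2: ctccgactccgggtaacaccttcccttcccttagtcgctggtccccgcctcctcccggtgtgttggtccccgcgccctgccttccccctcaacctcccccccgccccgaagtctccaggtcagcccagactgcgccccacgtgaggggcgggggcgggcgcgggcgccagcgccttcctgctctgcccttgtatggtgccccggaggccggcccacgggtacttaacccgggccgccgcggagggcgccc
EGR1: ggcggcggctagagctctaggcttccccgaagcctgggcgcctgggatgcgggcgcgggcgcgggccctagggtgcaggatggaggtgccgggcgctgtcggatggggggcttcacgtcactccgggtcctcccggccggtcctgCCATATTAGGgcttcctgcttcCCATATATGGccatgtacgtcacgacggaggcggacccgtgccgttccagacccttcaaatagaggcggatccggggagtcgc
The windows lie at chr4:123398136-123398385 (plus strand) for SPRY1, chr13:80341127-80341376 (minus) for SPRY2, chr5:172771196-172771445 (minus) for DUSP1, chr2:96145441-96145690 (minus) for DUSP2 and chr5:138465229-138465478 (plus) for EGR1. SPRY1 has 2 annotated starts and SPRY2 has 3. The window with the most matches is printed for each, or the most upstream one where windows tied.

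Matches were few. SPRY1 held an ETS match from -67 to -61 relative to the start, DUSP1 a CRE from -125 to -118, and EGR1 CArG boxes from -105 to -96 and from -83 to -74. The printed windows of SPRY2 and DUSP2 held none. Over all 45 windows of the 28 members, a CRE was found in 2 (DUSP1 and DUSP8), where 1.63% of 34943 windows of this length hold one. ETS letters were found in 2 (DUSP15 and SPRY1, 8.48% of all windows), TEAD letters in 1 (DUSP19, 11.9%), AP-1 letters in 1 (SPRED3, 4.22%) and a CArG box in 1 (EGR1, 1.16%). A match describes the letters and shows no binding.

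The nuclear, inducible MAP kinase phosphatases went separate ways. DUSP5, which dephosphorylates ERK and holds it in the nucleus, read 10.19, 10.27, 10.46, 10.35 and 10.42 with empty vector and 11.14, 11.04, 11.15, 11.17 and 11.27 with the construct. The groups lay well apart, and DUSP5 rose 1.76-fold (0.82 ± 0.059, SE, adjusted p = 4.6e-07). DUSP2 (PAC1), which acts on ERK and p38, went the other way. It read 6.54, 6.33, 6.66, 6.18 and 6.30 with empty vector and 5.79, 5.91, 5.72, 5.82 and 5.77 with the construct, from a control level close to 6.27, the median of all signals. No arrays overlapped, and DUSP2 fell 1.52-fold (-0.60 ± 0.083, adjusted p = 0.000114). An exact two-sided permutation test gave p = 0.0079 for DUSP5 and for DUSP2, the smallest that 5 against 5 arrays allow, as for every member whose groups did not overlap.

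DUSP1 and DUSP4, of the same nuclear class, did not pass. DUSP1 (MKP-1), which acts mainly on p38 and JNK, read 9.58, 9.51, 9.77, 9.61 and 9.60 and then 9.71, 9.59, 9.69, 9.66 and 9.70. Its groups overlapped, with a difference of 0.055 ± 0.049 (adjusted p = 0.446) and a 95% interval of -0.053 to 0.16. DUSP4 (MKP-2), a standard readout of ERK output, read 11.84, 11.71, 11.87, 11.79 and 11.88 with empty vector and 11.79, 11.70, 11.86, 11.87 and 11.96 with the construct. Its groups overlapped almost entirely (0.016 ± 0.053, adjusted p = 0.866, interval -0.10 to 0.13), and its other probe sets, both bright, were at -0.13 ± 0.053 (probe set adjusted p = 0.106) and -0.070 ± 0.042. Relative to its chromosomal neighbours DUSP1 was at -0.13 (adjusted p = 0.0441, range over all alternatives 0.0441 to 0.773), since their median was 0.19.

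Among the cytoplasmic, ERK-selective phosphatases DUSP7 fell and DUSP6 did not pass. DUSP6 (MKP-3), whose transcript is the best known feedback target of ERK, read 12.51, 12.59, 12.59, 12.59 and 12.57 and then 12.59, 12.54, 12.45, 12.47 and 12.47. Construct array 1 lay just above the controls, array 2 among them and arrays 3 to 5 below all of them. The difference was -0.062 ± 0.038 (adjusted p = 0.256) with an interval of -0.15 to 0.022. The other DUSP6 probe sets differed by -0.027 and -0.12, neither past the test. On the latter the groups did not overlap, with construct arrays at 11.20 to 11.26 and controls at 11.27 to 11.55 (probe set adjusted p = 0.136). Without the arrays numbered 1 and 2 of both vectors the DUSP6 difference was -0.12 and passed (adjusted p = 0.0367, range over all alternatives 0.0367 to 0.745). DUSP7 (PYST2), the closest relative of DUSP6, read 11.04 to 11.25 with empty vector and 10.55 to 10.80 with the construct. It fell 1.39-fold with no overlap (-0.48 ± 0.061, adjusted p = 6.03e-05), among chromosomal neighbours with a median of -0.18, while its dimmer probe set was at -0.15 ± 0.064 (probe set adjusted p = 0.115). DUSP9, expressed mainly in placenta, had means of 5.91 and 5.83, below the median of all signals, and differed by -0.077 ± 0.080 (adjusted p = 0.523).

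The phosphatases that prefer JNK and p38 included the most marked fall. DUSP16 (MKP-7) read 9.87, 9.88, 9.94, 9.92 and 9.97 with empty vector and 9.20, 9.15, 9.33, 9.28 and 9.31 with the construct. The arrays of each vector were close together and the groups far apart, a 1.58-fold fall (-0.66 ± 0.043, adjusted p = 1.87e-07). Its second probe set fell by 0.86 ± 0.063, and the dimmer ones were at -0.15 and -0.049. The neighbours of DUSP16 had a median of -0.39. Relative to them DUSP16 was at -0.27, still past the test (adjusted p = 0.000337, the highest over its alternatives, which reached down to 1.27e-08). DUSP8 (hVH5) was lower on both of its probe sets, by 0.21 ± 0.066 (adjusted p = 0.0264) and 0.29 ± 0.082 (probe set adjusted p = 0.0208), with overlapping groups on both. The call on the brightest was lost without empty vector array 1, 2 or 5 or without YAPS94A array 1 or 5 (adjusted p = 0.0581, 0.0626, 0.0608, 0.0568 and 0.0526; 0.269 without the arrays numbered 1 and 2 of both vectors, range over all alternatives 0.000639 to 0.269).

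DUSP10 (MKP-5) varied more between arrays of a vector than nearly all genes. It read 11.66, 11.68, 12.58, 12.62 and 12.60 with empty vector and 12.59, 11.99, 12.84, 12.78 and 12.91 with the construct. Empty vector arrays 1 and 2 and YAPS94A array 2 lay far below the rest, and the SD exceeded that of 99.9% of genes with empty vector and 99.7% with the construct. The difference of 0.39 ± 0.24 did not pass (adjusted p = 0.248), while the second probe set, with less spread, was higher by 0.46 ± 0.12 (probe set adjusted p = 0.011). A fit with array number as block called DUSP10 (adjusted p = 0.0144), and without the arrays numbered 1 and 2 it was at 0.24 and passed too (adjusted p = 0.00498, range over all alternatives 0.00498 to 0.472).

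This pattern was shared by other members. In both vectors, arrays 1 and 2 lay below arrays 3 to 5 for 10 of the 36 genes (DUSP5, DUSP10, DUSP11, DUSP16, ETV1, PHLDA1, SPRED1, SPRED2, SPRY1 and SPRY4) and above them for 2 (DUSP15 and DUSP22), beside 7.35% and 12.1% of all genes. A measure of RNA integrity, the 3′ minus 5′ log2 signal of the GAPDH and ACTB control probe sets, was 0.85, 0.68, 0.68, 0.52 and 0.48 on the empty vector arrays and 0.68, 0.82, 0.54, 0.46 and 0.44 on the YAPS94A arrays. It was highest on empty vector array 1 and YAPS94A array 2, and both vectors spanned a like range. With this measure as a covariate DUSP10 was at 0.27 (adjusted p = 0.153), SPRY1 at 0.78 and SPRED1 at -0.47.

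**Figure D2:**
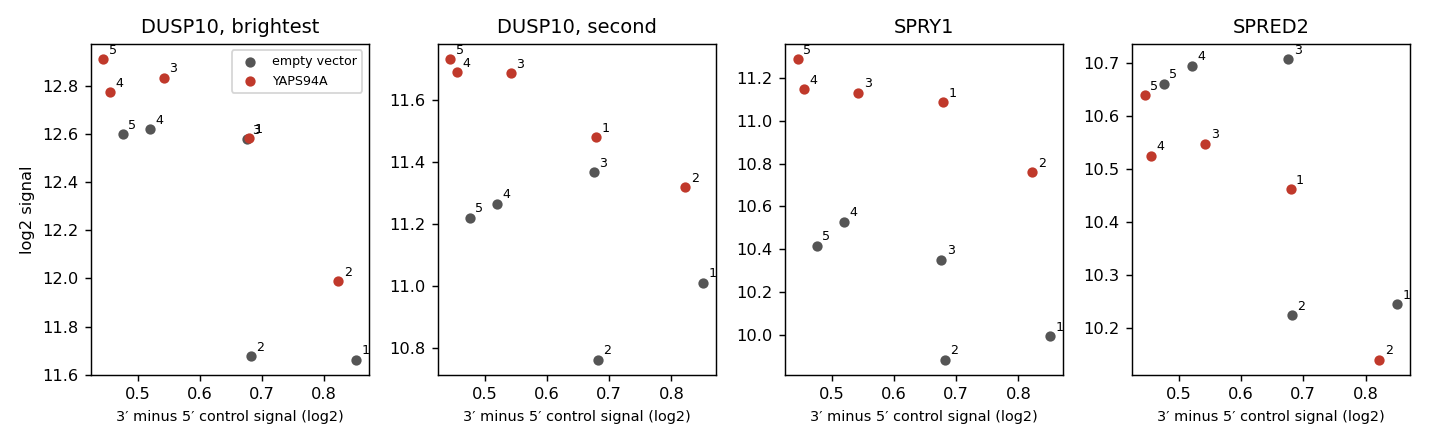
Signal of both DUSP10 probe sets, SPRY1 and SPRED2 on each array (vertical axis, log2, its own range in each panel) against the 3′ minus 5′ signal of control probe sets (horizontal axis, log2), with numbers giving the array and colours the vector. Arrays with a 3′ minus 5′ signal of 0.82 or 0.85 read low on all 4 probe sets within their vector. Empty vector array 2, at 0.68, did so too. Empty vector array 3, also at 0.68, read above arrays 1 and 2 of its vector on all 4. YAPS94A array 1, at 0.68 as well, lay between array 2 and the rest of its vector. SPRY1 was higher with the construct throughout.

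The atypical DUSPs are smaller enzymes without the MAP kinase binding domain, and several have substrates outside the pathway. Of 12, 4 were higher, 2 lower and 6 did not pass, beside 36.3% of all genes called. DUSP18, which has been found in mitochondria, rose by 0.48 ± 0.070 (adjusted p = 0.00017), from 8.31 to 8.73 with empty vector to between 9.01 and 9.11 with the construct, against neighbours with a median of -0.29, and its second probe set rose by 0.24. DUSP22 (JKAP), which modulates JNK signalling, rose by 0.33 ± 0.086 with overlapping groups (adjusted p = 0.00898). Its second probe set was at 0.091 ± 0.071 (probe set adjusted p = 0.409), and the mean of both was 0.21 (adjusted p = 0.0395, range over all alternatives 1.46e-06 to 0.0395). DUSP14 (MKP-6) rose by 0.22 ± 0.037 without overlap. DUSP19 (SKRP1) was higher on all 3 of its probe sets, by 0.28, 0.46 and 0.35. All 3 had means below 6.27, the median of all signals (5.36 and 5.64, 5.07 and 5.52, 4.69 and 5.04). The control mean of the third lay below 4.73, the lower quartile, so the sizes are uncertain. On the first of these the call was lost without empty vector array 3 or 4 or YAPS94A array 3 (adjusted p = 0.0597, 0.0574 and 0.0502; 0.0739 without the arrays numbered 1 and 2, range over all alternatives 0.00111 to 0.0739).

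DUSP12, linked to ribosome assembly, fell by 0.25 ± 0.050 without overlap (adjusted p = 0.00171). DUSP3 (VHR), which can act on ERK and JNK, read lower by 0.23 ± 0.034 on its brightest probe set (adjusted p = 0.00019), but its second, also bright, was at 0.030 ± 0.043 (probe set adjusted p = 0.681), and its dimmest was at -0.15 ± 0.084. A single direction for DUSP3 is not shown by its probe sets. DUSP11, DUSP15, DUSP21, DUSP23, DUSP26 and DUSP28 did not pass, with differences of -0.077 to 0.091, and DUSP21 read below 4.73, the lower quartile of all signals. Of these, DUSP15 and DUSP28 each passed under 1 alternative (lowest adjusted p = 0.0198 and 0.0336, highest 0.81 and 0.801).

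**Figure D3:**
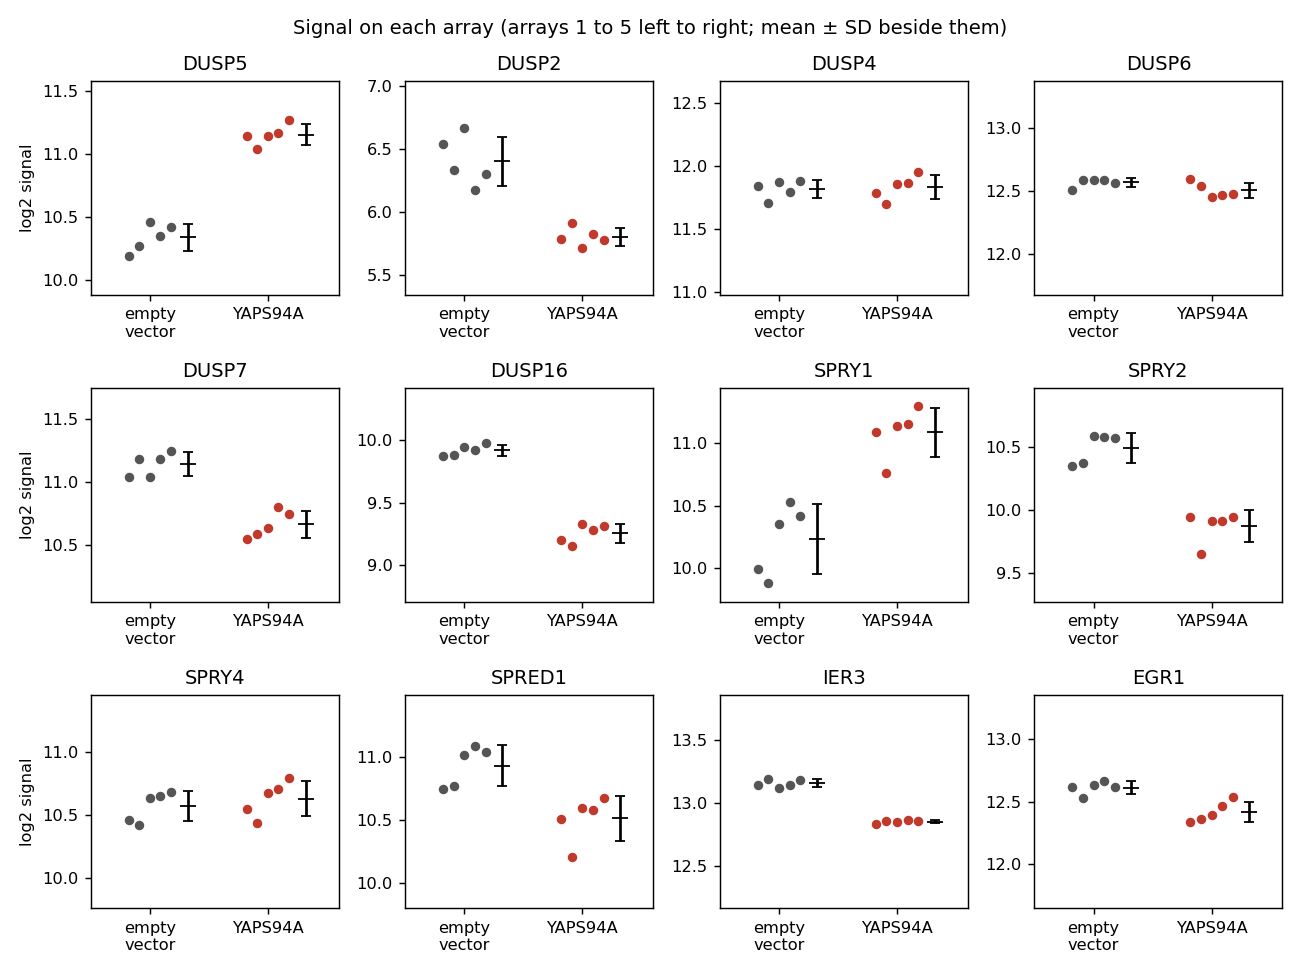
Signal of 12 members on each array (vertical axis, log2; each panel spans the same height around its own level), with arrays 1 to 5 of each vector from left to right and the mean ± SD beside them. DUSP5 and SPRY1 sit higher with the construct on all 5 arrays, DUSP2, DUSP7, DUSP16, SPRY2, SPRED1 and IER3 lower on all 5, and the vectors overlap for DUSP4, DUSP6, SPRY4 and EGR1.

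The Sprouty genes split. SPRY1 read 9.99, 9.88, 10.35, 10.53 and 10.42 with empty vector and 11.09, 10.76, 11.13, 11.15 and 11.29 with the construct. Despite the low arrays 1 and 2 of the controls and array 2 of the construct, the groups did not overlap. The rise of SPRY1 was 1.80-fold, the largest among the members (0.85 ± 0.13, adjusted p = 0.000281), and it passed under every alternative (adjusted p = 1.19e-05 to 0.00113). A second SPRY1 probe set read 5.67 and 5.68, below the median of all signals, and differed by 0.0084. SPRY2, read by a single probe set, was at 10.35, 10.38, 10.59, 10.58 and 10.57 with empty vector and at 9.94, 9.65, 9.91, 9.91 and 9.95 with the construct. All construct arrays lay below all controls, a 1.54-fold fall (-0.62 ± 0.071, adjusted p = 2.37e-05), with neighbour medians near 0 for SPRY2 (-0.0050) and SPRY1 (0.0079).

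SPRY4, another standard ERK readout, read 10.46, 10.42, 10.64, 10.65 and 10.68 and then 10.55, 10.43, 10.68, 10.71 and 10.79, with overlapping groups (0.061 ± 0.075, adjusted p = 0.597, interval -0.10 to 0.22). Its neighbours had a median of 0.26, and relative to them SPRY4 was at -0.20 (adjusted p = 0.0477, range over all alternatives 0.0477 to 0.882). SPRY3 read 4.22, 4.06, 4.10, 4.23 and 4.26 with empty vector and 4.64, 4.50, 4.69, 4.91 and 4.67 with the construct. Its groups did not overlap (0.51 ± 0.070, adjusted p = 0.000113), but its mean over the arrays lay below the lower quartile of all signals, so the size of the rise is uncertain.

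Of the SPRED genes only SPRED1 passed. It read 10.75, 10.77, 11.01, 11.09 and 11.04 with empty vector and 10.51, 10.20, 10.60, 10.58 and 10.67 with the construct. The groups lay side by side without overlap, a 1.34-fold fall (-0.42 ± 0.096, adjusted p = 0.0043), and a second probe set fell by 0.47 ± 0.062. SPRED2 differed by -0.043 ± 0.12 (adjusted p = 0.834) with a spread above that of 97.0% of genes in the controls, and SPRED3 by -0.0096 ± 0.048.

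The PEA3-type factors differed by little. ETV5 read 12.46, 12.40, 12.45, 12.45 and 12.44 with empty vector and 12.52, 12.58, 12.56, 12.59 and 12.64 with the construct. These narrow groups did not overlap, and ETV5 rose 1.10-fold (0.14 ± 0.034, adjusted p = 0.00626). A second bright probe set rose by 0.19 ± 0.044 and the other 3 were not past the test, and the mean of the 5 probe sets did not pass (0.11, adjusted p = 0.107, range over all alternatives 0.000703 to 0.107). ETV4 read 8.86, 8.74, 8.55, 8.51 and 8.62 and then 8.79, 9.04, 8.78, 8.85 and 8.80. Empty vector array 1 lay inside the construct range, and the difference of 0.20 ± 0.074 just missed the test (adjusted p = 0.059, blocked by array number 0.0305, range over all alternatives 0.00349 to 0.134). Its second probe set was higher (0.25 ± 0.056, probe set adjusted p = 0.00524). ETV1 differed by -0.18 ± 0.11 (adjusted p = 0.271), and passed with the RNA integrity covariate (-0.24, adjusted p = 0.000342, range over all alternatives 0.000342 to 0.64).

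Of the early-response genes IER3 and EGR1 fell modestly, EGR3 did not pass and PHLDA1 differed between its probe sets. IER3, an early-response protein and ERK substrate that promotes survival, read 13.15, 13.20, 13.12, 13.15 and 13.18 with empty vector and 12.83, 12.86, 12.85, 12.86 and 12.86 with the construct. Arrays agreed closely within each vector, and IER3 fell 1.24-fold (-0.31 ± 0.031, adjusted p = 8.12e-06) among neighbours with a median of 0.15. EGR1, the zinc finger factor whose CArG boxes are printed above, read 12.62, 12.53, 12.63, 12.66 and 12.62 and then 12.34, 12.36, 12.39, 12.47 and 12.53. The groups met at one edge, and EGR1 fell 1.14-fold (-0.19 ± 0.046, adjusted p = 0.00538), on its second bright probe set by 0.17 ± 0.048, among neighbours with a median of 0.23. EGR3 read below the lower quartile of all signals in both groups (3.76 and 3.74).

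PHLDA1, which encodes a pleckstrin homology-like protein induced by ERK, depended on the probe set. The brightest read 12.42, 12.45, 12.48, 12.58 and 12.54 and then 12.75, 12.66, 12.79, 12.78 and 12.82, a rise of 0.27 ± 0.043 without overlap (adjusted p = 0.000412). The next in brightness differed by 0.0065 ± 0.038, another bright one fell by 0.16 ± 0.043 (probe set adjusted p = 0.0131), and the other 3 were at 0.14, 0.13 and 0.044. The mean of the 6 probe sets did not pass (0.069, adjusted p = 0.447, range over all alternatives 2.45e-05 to 0.447), so the direction of PHLDA1 is not settled here.

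20 members were read by several probe sets. Of all 76 member probe sets 15 were higher and 15 lower (39.5% past the test, beside 28.6% of all probe sets). The latter share is not matched for level, and most members were bright. For DUSP8, DUSP18 and DUSP19 every probe set passed in a single direction, and PHLDA1 was the only member with calls in both. The DUSP19 probe sets, and the dimmer one of DUSP18, had means below the median of all signals.

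**Figure D4:**
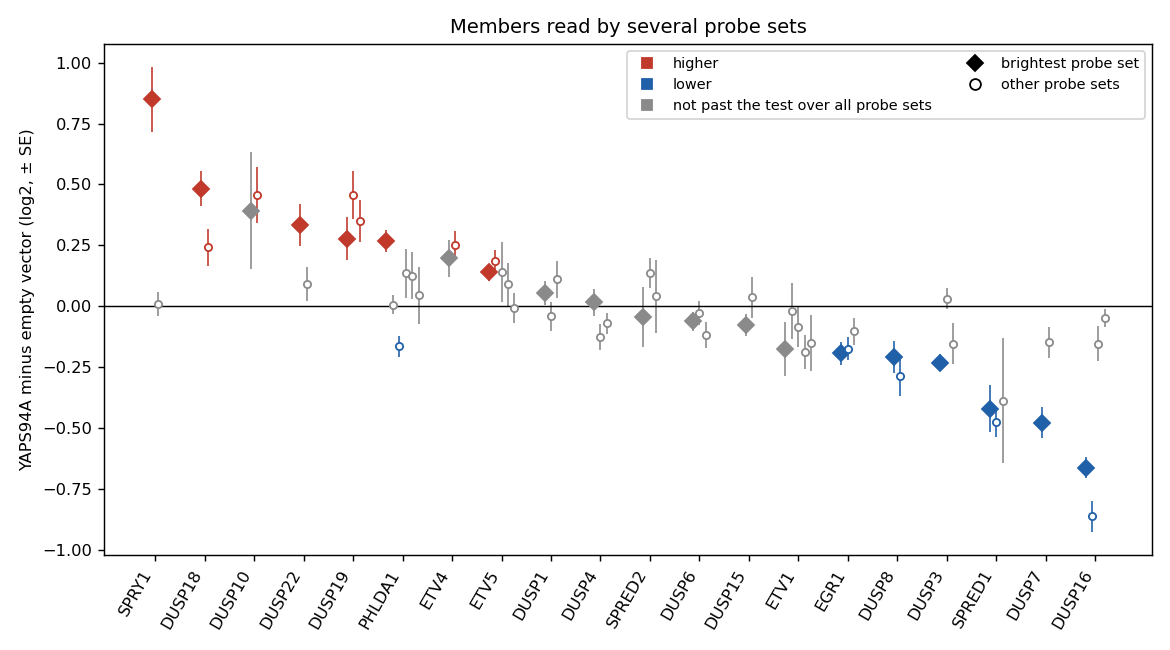
Difference of each probe set, YAPS94A minus empty vector (vertical axis, log2, with SE bars), for the 20 members read by several, ordered by the brightest one. Diamonds mark the brightest probe set and open circles the others, which lie near 0 for SPRY1 (0.0084) and on both sides of 0 for PHLDA1 (-0.16 to 0.14) and DUSP3 (-0.15 to 0.030).

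Genes of the kinase cascade itself were also read from lists. Of 37 listed components of the ERK cascade 30 were measured, of which 9 rose, 3 fell and 18 were uncalled (median difference 0.084). The 40.0% called is close to the 36.3% of all genes, and 28 of the 30 lay above the median gene level, where 52.4% of genes were called. Blocking by array number gave 12 higher and 4 lower. KSR1, the scaffold that holds RAF, MEK and ERK together, read 7.19 to 7.58 with empty vector and 8.05 to 8.14 with the construct, a 1.63-fold rise (0.71 ± 0.077, adjusted p = 1.65e-05). GAB1, a docking protein of receptor tyrosine kinases, rose by 0.48 ± 0.051, MKNK1, a kinase downstream of ERK, by 0.29 ± 0.093, and MAPK3, which encodes ERK1, by 0.42 ± 0.052 on an _x_at probe set, a type that may bind related transcripts. NF1, which encodes neurofibromin, the partner of SPRED1, did not pass on the probe set that represented it (0.16 ± 0.060, adjusted p = 0.0625). That probe set read below the lower quartile of all signals, so the level and the change of NF1 are uncertain.

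The JNK, p38 and ERK5 list, which holds the kinases that DUSP8, DUSP10 and DUSP16 act on, had 21 of 24 genes measured, of which 7 rose, 3 fell and 11 were uncalled (47.6% called, beside 36.3% of all genes and 52.4% of those above the median gene level, where 16 of the 21 lay; median difference 0.043). With the block the counts were 8 higher and 4 lower. MAP2K6, a kinase that activates p38, went from 6.73 ± 0.067 to 8.36 ± 0.056 (SD, n = 5), a 3.10-fold rise (1.63 ± 0.043, SE, adjusted p = 7.79e-11). MAPK11, which encodes p38 beta, rose by 0.58 ± 0.092 and MAPK9, which encodes JNK2, by 0.55 ± 0.054. MAP3K4 fell by 0.55 ± 0.083, on an _x_at probe set and among neighbours with a median of -0.26.

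Other ERK-induced genes likewise went both ways, 5 rising and 10 falling of 27 measured among 28 listed, and 12 uncalled (55.6% called, beside the same 36.3% and 52.4%, with 23 of the 27 above the median gene level; median difference -0.046). The block gave 8 higher and 10 lower. The cytokine gene LIF fell 2.64-fold (-1.40 ± 0.058, adjusted p = 3.77e-09) among neighbours with a median of -0.29. The transcription factor gene ETS2 fell by 0.74 ± 0.042 and PLAUR, the urokinase receptor gene, by 0.61 ± 0.051, the latter among neighbours with a median of -0.26. ATF3, a stress-induced transcription factor, rose 2.11-fold (1.07 ± 0.040, adjusted p = 1.73e-09). CCND1 (cyclin D1) was higher by 0.13 ± 0.036 (adjusted p = 0.013) among neighbours with a median of 0.26, FOS differed by -0.046 ± 0.072 and FOSL1 (FRA1) by 0.10 ± 0.065 (adjusted p = 0.271).

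**Figure D5:**
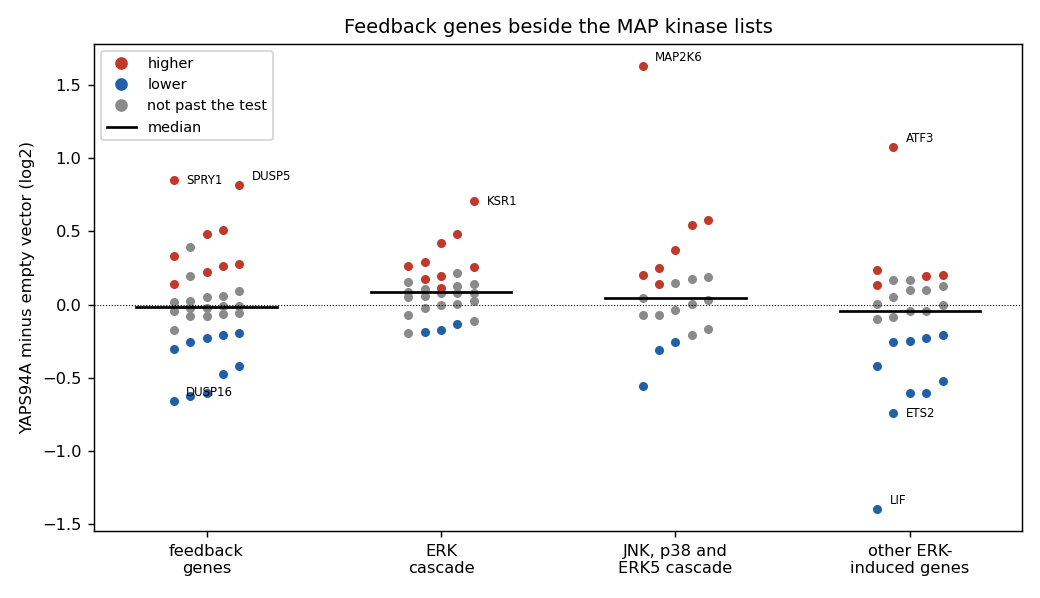
Difference of every measured gene, YAPS94A minus empty vector (vertical axis, log2), for the 36 members (labelled feedback genes) and 3 MAP kinase lists. Colours give the call and bars the median of each list. Medians lie at -0.015, 0.084, 0.043 and -0.046 from left to right, and the genes farthest from 0 are named, MAP2K6 at 1.63 and LIF at -1.40 being the extremes.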

How the data were processed

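RNA from 10 samples went through NuGEN Ovation amplification, and biotin-labelled cDNA was hybridised, per the labels' protocols. The deposited values are log2 signals of 54675 probe sets, from 2.86 to 14.43, with array medians of 6.25 to 6.28. The authors' probe summary and normalization are not given in the sources used here, and the values were used as deposited. With 5 arrays a vector, the number of arrays limits the precision.

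Gene symbols came from GEO's annotation of the array and were brought up to date with RefSeq (GRCh38.p14). 41097 had 1 symbol (41048 found in RefSeq), 1801 several and 11777 none, and 62 controls were left out. DUSP symbols had to be DUSP and digits only. limma 3.58.1 (R 4.3.3; lmFit, eBayes, no covariate, Benjamini-Hochberg over 19775 genes) compared the vectors, two-sided. The members follow the rule on symbols, and that rule, the lists and the tests were set with earlier results of these data known. Values on every array are given for members past the test at 0.5 log2 units or more and for 12 standard readouts, and the 4 largest calls of each list are named, besides CCND1, FOS and FOSL1. NF1, and the members named besides, were chosen after their values were seen.

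Same-numbered arrays had correlated deviations from their group means (0.102 to 0.59), and the number was treated as a possible pairing. The most similar YAPS94A array was array 2 for empty vector arrays 1 and 2, and array 5 for arrays 3, 4 and 5. The most similar empty vector array was array 1 for YAPS94A arrays 1 and 2, and array 4 for arrays 3, 4 and 5. Pairing by number is therefore an assumption that these correlations do not settle, and no batch is stated. A simulation of 19775 genes moved 50 of them at each size. The fit found 44% at 0.25 log2 units, 92% at 0.5 and 100% at 1 and 2, with 15 false calls. In the comparison of the vectors 7172 genes were called, far more than the simulation moved. Its rates therefore do not give the recovery or the false calls of this comparison. Chromosomal neighbours are the 30 adjoining genes above the median level. Alternatives were other normalizations, filters, probe set choices, variance models, the block, arrays left out, the RNA covariate and the neighbour median.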

Additional observations from a re-analysis of the deposited data

Results flagged for a closer look

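Among 72 sets of 5 arrays (36 genes in each vector), 5 had an array whose gap to the nearest other exceeded 0.71 of the range of that set, where chance flags about 5%. SPRY2 read 9.65 on YAPS94A array 2, beside 9.91 to 9.95 on the others. ETV4 read 9.04 on the same array, beside 8.78 to 8.85. DUSP19 read 5.90 on YAPS94A array 3 (others 5.52 to 5.63). DUSP3 read 11.80 on YAPS94A array 4 (others 11.72 to 11.74). DUSP6 read 12.51 on empty vector array 1 (others 12.57 to 12.59). Their causes were not tested.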

How the results depend on the processing

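Of the 19 members past the test, 14 kept direction and call under every alternative in which they were measured, 9 of them in all 23 and 5 in 21 or 22, and of the 17 others 3 did, none measured in all 23. Counts were 9 higher and 10 lower as reported, and 8 to 10 higher and 9 to 10 lower with any single array left out. They were 10 and 11 without the arrays numbered 1 and 2, where 6 calls changed, and 9 and 13 with the neighbour median subtracted. Without _x_at and _s_at probe sets, which left 31 members, 6 were lower and DUSP3 stood at 0.030. With the mean of a gene's probe sets DUSP4 was at -0.060 and SPRED2 at 0.044, and PHLDA1 and ETV5 lost their calls. With the RNA covariate DUSP4 was at -0.0016. DUSP11 was at 0.012 with array weights and at 0.023 without the arrays numbered 1 and 2. With the neighbour median subtracted DUSP1, DUSP4 and SPRY4 were at -0.13, -0.099 and -0.20. With any single array left out, members near 0 crossed it, DUSP4 (-0.015 to 0.050), DUSP11 (-0.055 to 0.060), DUSP23 (-0.013 to 0.076), EGR3 (-0.050 to 0.049), SPRED2 (-0.11 to 0.037) and SPRED3 (-0.036 to 0.014). The array number as a replicate block gave 11 higher and 10 lower, adding DUSP10 (0.39, adjusted p = 0.0144) and ETV4 (0.20, adjusted p = 0.0305), and changed no other member's call. Where no value shows it, the cause was not tested. Without detection calls, members near background (SPRY3, DUSP21, EGR3) and the dimmest DUSP19 probe set have uncertain sizes.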
